A study of Rattus norvegicus with 120 samples.

Results

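The miR-144 and miR-451 cluster comprises rno-miR-144-5p and rno-miR-144-3p, the arms of 1 hairpin, and rno-miR-451-5p, the product of the neighbouring hairpin. These 3 miRNAs were chosen by name, out of 666 listed in at least 1 of the count tables of the acute, latent and chronic stage. They were picked because of their reputation as red cell miRNAs and because of earlier results of these data, among them lower levels after status epilepticus (SE) in the infancy-onset rats of the latent stage. The SE contrasts of the members are therefore given as a description, and no test of them is used. All 3 members were listed in every stage and passed the minimum of 500 reads summed over the libraries of a stage.

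Small RNA was sequenced from the hippocampus of male Wistar rats. Every animal, control or not, received LiCl before pilocarpine, which induced SE, or before saline, which was the control injection. The infancy-onset rats were injected on postnatal day 12 and the adult-onset rats on day 60, and the labels place the tissue 24 hours (acute), 1 week (latent) and 3 months (chronic) after SE. The 12 groups hold 8 SE libraries and 9 control libraries (acute infancy-onset), 9 and 9 (acute adult-onset), 10 and 10 (latent, at each onset age), 10 and 9 (chronic infancy-onset) and 10 and 10 (chronic adult-onset), 114 libraries in all. According to the study's methods, which were written for the chronic stage, rats were decapitated under ether and the hippocampus of both hemispheres was frozen whole. The sources used here describe no washing out of the blood. Clonic seizures are described for the adult-onset rats, and for neither infancy-onset rats nor controls, 3 months after SE. Infancy-arm and adult-arm animals of 1 stage differ in age at sampling, and onset and age cannot be told apart.

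Libraries held between 309975 and 28111631 reads assigned to miRNAs, with a median of 2296301, and the acute stage was the shallowest (309975 to 4026890). No 2 libraries were identical. Levels are given as reads per 1000000 miRNA reads (CPM), scaled within each stage by edgeR's TMM factors. That the tissue holds neurons was checked on 5 neuronal miRNAs, among them miR-124-3p and miR-128-3p. They cannot tell the hippocampus from other brain regions. All 5 were read in every stage, and their summed level ran from 50990 to 131600 CPM. In bulk tissue, fewer cells of a type and less RNA per cell cannot be told apart, and this holds for blood cells left in the vessels as well.

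This cluster is transcribed as 1 primary RNA in the red cell lineage, where the factor GATA1 drives it, and miR-451 is among the most abundant miRNAs of mature red cells. The miR-144 hairpin is processed in the usual way, by Drosha and then Dicer, and can load either arm. The miR-451 hairpin is too short for Dicer and is cut by the slicer activity of Ago2, so that the mature strand runs from the 5′ arm into the loop and very little of a 3′ arm is made. In mice, miR-451 represses Ywhaz, a 14-3-3 adaptor protein, and protects red cells from oxidative stress. Because neurons and glia are not known as its main source, reads of this cluster in brain tissue are commonly taken as a sign of blood.

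The mature sequences are shown because the 3 members share a transcript but no seed, the stretch that pairs with targets. They are from RefSeq, build GRCr8, and run 5′ to 3′, with the seed (bases 2 to 8) in capitals.
rno-miR-144-5p: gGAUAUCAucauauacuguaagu
rno-miR-144-3p: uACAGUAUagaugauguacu
rno-miR-451-5p: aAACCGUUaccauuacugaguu
The 3 seeds differ from each other, and none of them occurs as the seed of any other of the 693 rat mature miRNAs in the RefSeq table. The nearest other mature sequence to each member is 8 edits away, and reads were assigned with at most 1 mismatch.

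The hairpins are shown to place the arms, with the mature strands in capitals.
Mir144: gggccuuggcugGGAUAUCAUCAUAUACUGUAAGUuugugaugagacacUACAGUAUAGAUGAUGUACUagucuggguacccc
Mir451a: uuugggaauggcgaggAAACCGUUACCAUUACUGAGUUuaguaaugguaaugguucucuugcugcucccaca
Mir144 lies on the plus strand at chr10:63459397-63459479 and Mir451a at chr10:63459569-63459640 of GRCr8, with 89 bases between them. Neither overlaps another gene of the RefSeq table, and the neighbouring genes on the 2 sides are Flot2 and Eral1. In the 83-base miR-144 hairpin the 5p arm covers bases 13 to 35 and the 3p arm bases 50 to 69. In the 72-base miR-451 hairpin the mature strand covers bases 17 to 38.

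The arms of the 2 hairpins were read unequally. RefSeq also lists a 3p strand of the miR-451 hairpin, and in the latent stage it had 6 reads, in 4 of 40 libraries, against 28027 reads of miR-451-5p. In the chronic stage it had 13 reads, in 6 of 39 libraries, against 64688, and it was not listed in the acute table. Both arms of miR-144 were read, by contrast. The share of the 3p arm among all miR-144 reads ran, as a group mean, from 39.4% ± 15.4 (SD, n = 9, acute infancy-arm controls) to 53.8% ± 9.78 (n = 9, acute adult-onset SE) in the acute stage. It ran from 29.2% ± 15.9 to 39.6% ± 6.73 (n = 10 each) in the latent stage and from 23.2% ± 9.36 to 29.8% ± 15.6 (n = 10 each) in the chronic stage. Stages were counted and scaled separately, so that the lower shares of the later stages cannot be told apart from the set of libraries.

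The members were a small part of the hippocampal miRNAs, and the part differed widely between animals. Together they came to between 55.6 and 1055.5 CPM of the library total, with a median of 308.1. miR-451-5p ranked 166th of 383 miRNAs by level in the acute stage, 151st of 406 in the latent stage and 138th of 442 in the chronic stage. miR-144-5p ranked between 281st and 289th, and miR-144-3p between 297th and 347th.

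**Figure D1:**
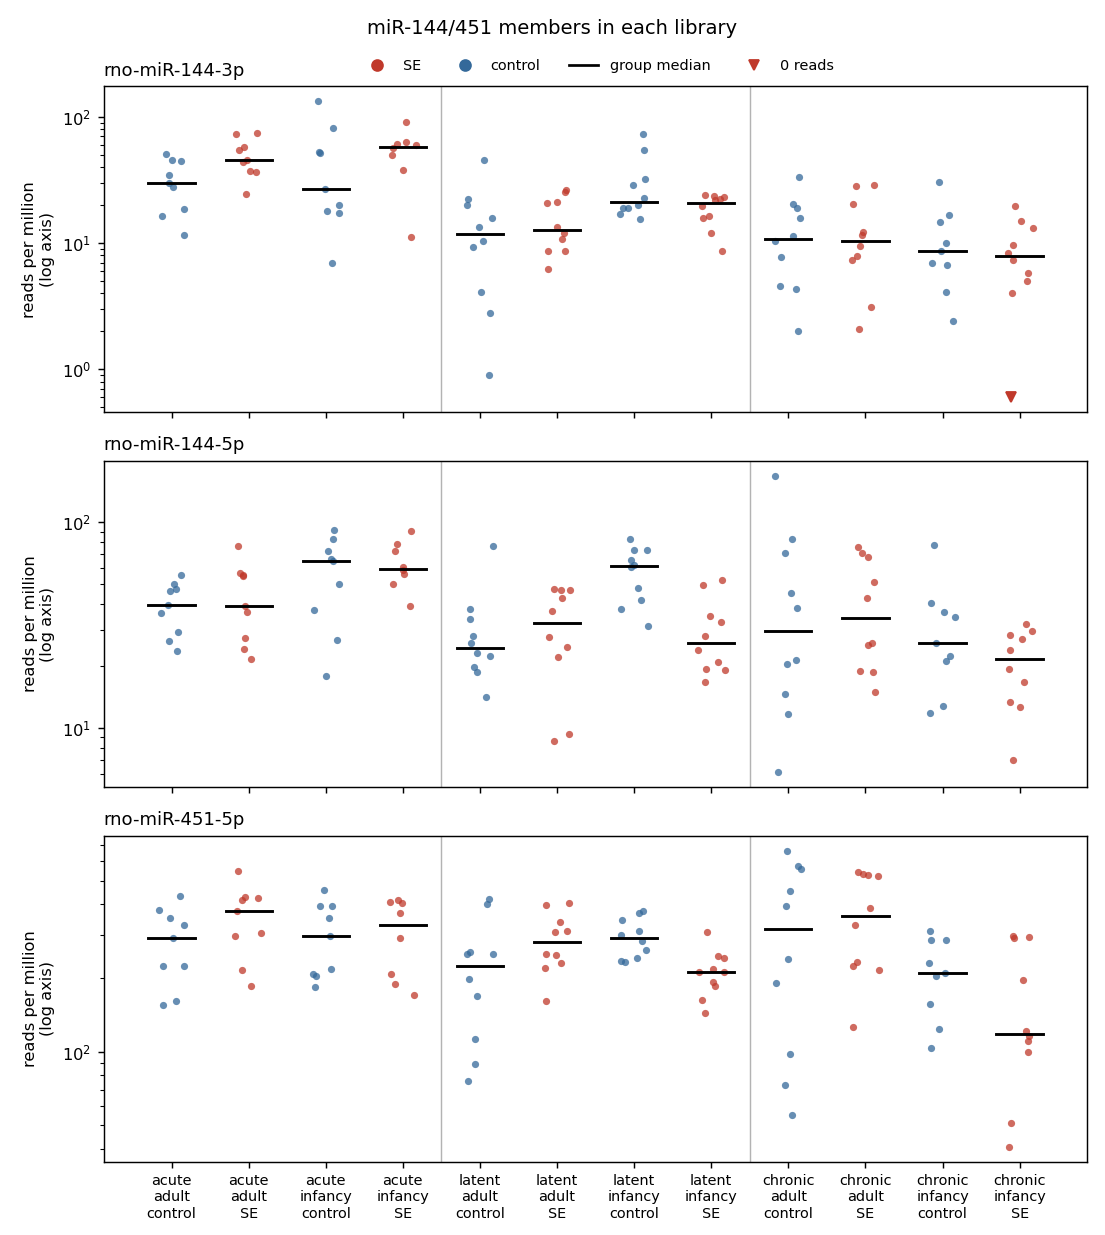
Level of the 3 members in each library (CPM on a log axis, 1 panel a member), by stage, onset age and treatment, with SE in red, controls in blue and the group median as a line. The triangle is the library with 0 reads of miR-144-3p, drawn at the lower edge because 0 has no place on a log axis. In the latent infancy-onset rats the median of miR-144-5p was 26 after SE and 61.2 in controls.

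The order of the group means was not the same for the 3 members. For miR-451-5p the highest mean was that of chronic adult-onset SE (363.8 ± 159 CPM, SD, n = 10) and the lowest that of chronic infancy-onset SE (162.1 ± 101, n = 10). For miR-144-5p it ran from 63.2 ± 16.4 (acute infancy-onset SE, n = 8) to 21 ± 8.45 (chronic infancy-onset SE, n = 10). For miR-144-3p the same 2 groups were at the ends, at 53.9 ± 23 and 8.77 ± 5.78. No 2 neighbours in any of the 3 orders differed by more than the larger of their SDs. The largest such gap was 0.69 SD, for miR-144-5p between latent infancy-onset SE (29.8 ± 12.7) and chronic infancy-onset SE. Sorting puts close means side by side, so these gaps say nothing of groups further apart in an order. Stages were scaled separately, so the order across stages cannot be told apart from the set of libraries.

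The next question was whether the members differed between SE and control rats of each stage and onset age. The clearest difference was in the latent infancy-onset rats, 1 week after SE, where all 3 members were lower than in controls. miR-144-5p, the arm with the largest difference, ran from 16.8 to 52.4 CPM (median 26) in 10 SE libraries and from 31.3 to 82.4 (median 61.2) in 10 controls. All 10 SE libraries lay below the control median and 6 of them below every control. The fitted log2 difference was -0.96 ± 0.22 (standard error).

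miR-451-5p ran from 143.2 to 309.7 CPM (median 211.7) after SE and from 231.7 to 377.0 (median 292.6) in these controls. Here 9 of 10 SE libraries were below the control median and 7 were below every control, at a log2 difference of -0.48 ± 0.12. miR-144-3p ran from 8.7 to 24.0 (median 20.8) after SE and from 15.6 to 73.0 (median 21.3) in controls. Its medians were close, with 5 of 10 SE libraries below the control median and 4 controls above every SE library, and the log2 difference was -0.69 ± 0.27.

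edgeR's quasi-likelihood fit called 1 of the 3 members, miR-144-5p, at an adjusted p under 0.05 in this contrast, and 0.493% of all 406 miRNAs. Because the contrast had a part in choosing the members, this count is no test of them and nothing is read from it. It also turned on the processing, since the call was lost without any one of 13 of the 20 libraries, the controls 2-S35 to 2-S40 and the SE libraries 2-S21, 2-S22 and 2-S26 to 2-S30, while the log2 difference stayed between -1.08 and -0.89 in all 20 fits.

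Among other blood miRNAs of the same libraries the differences went in both directions. miR-486, which is abundant in red cells and also in muscle, had a ratio of means of 0.95 between SE and control rats, with 6 of 10 SE libraries above the control median. The 5 further miRNAs listed for the red cell (miR-486, miR-363-3p, miR-16-5p, miR-92a-3p and miR-25-3p) had none called by edgeR, DESeq2 or limma voom and 0 at an unadjusted p under 0.05, 2 fitted above and 3 below 0, and a median log2 difference of -0.04 against 0.01 over all miRNAs. Of the 4 leukocyte and platelet miRNAs, miR-142-3p had a log2 difference of -0.32 ± 0.14 (standard error), miR-223-3p of -0.20 ± 0.13, miR-142-5p of -0.01 ± 0.15 and miR-150-5p, the most abundant of them, of 0.08 ± 0.08. None was called by the 3 tools, and 1 had an unadjusted p under 0.05 in edgeR. Their summed level was 425.1 to 569.1 CPM after SE and 424.9 to 553.0 in controls. For the vessel wall list, which holds the endothelial miR-126a and the smooth muscle miR-143 and miR-145, it was 11320 to 22280 and 14100 to 22600. Whether the amount of blood had a part in the lower members was not tested.

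In the latent adult-onset rats the groups overlapped for every member. miR-451-5p ran from 161.3 to 405.8 CPM (median 280.5) after SE and from 75.5 to 419.7 (median 224.6) in controls, a log2 difference of 0.37 ± 0.26. miR-144-5p ran from 8.6 to 47.2 (median 32.3) and from 14.2 to 76.5 (median 24.5), a difference of 0.04 ± 0.31. miR-144-3p ran from 6.2 to 26.4 (median 12.7) and from 0.9 to 45.8 (median 11.9), a difference of 0.11 ± 0.43. In CPM the controls spanned more than the SE libraries for all 3. By the fold between the highest and lowest library, miR-144-5p spanned 5.49 after SE and 5.4 in controls. The miR-144-3p difference was 0.61 without the control 2-S12 and -0.03 without either of the controls 2-S13 and 2-S16. edgeR called 7.39% of all miRNAs in this contrast, 6.9% as higher, and among them 2 of 5 other red cell miRNAs (miR-363-3p and miR-92a-3p) and 2 of 4 leukocyte and platelet miRNAs (both arms of miR-142).

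In the acute adult-onset rats, 24 hours after SE, miR-144-3p had the largest difference. It ran from 24.6 to 73.8 CPM (median 45.6) in 9 SE libraries and from 11.6 to 50.8 (median 29.7) in 9 controls. 8 of 9 SE libraries were above the control median and 4 above every control, at a log2 difference of 0.66 ± 0.27. miR-451-5p ran from 185.1 to 546.7 (median 377.1) and from 154.8 to 431.2 (median 292.1), with 7 of 9 above the control median and a difference of 0.33 ± 0.22. miR-144-5p ran from 21.6 to 76.7 (median 39.1) and from 23.7 to 55.1 (median 39.6), a difference of 0.10 ± 0.24. The share of the 3p arm was 53.8% ± 9.78 after SE and 42.7% ± 11.7 in controls (n = 9 each). The SE libraries were shallower, with a median of 562003 reads against 1838745 in controls. Without libraries under 500000 reads the miR-144-3p difference was 0.47. The shallowest control, 1-S8 (507283 reads), had the highest 3p share of the controls, 65.7%. The part of depth in these differences was not tested.

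edgeR called 3.66% of all miRNAs in this contrast, 2.87% as higher. Among 4 other red cell miRNAs tested, 3 were fitted above and 1 below 0, with a median log2 difference of 0.11. None was called by edgeR, DESeq2 or limma voom, which called 14, 18 and 17 of all 383 miRNAs. miR-486 had a ratio of means of 1.08. Of the 4 leukocyte and platelet miRNAs, 2 were called higher, miR-142-3p and miR-223-3p, and the summed level of the 4 overlapped between the groups, at 904.4 to 2337 CPM after SE and 818.2 to 1219 in controls. The part of these cells in the level of the members was not tested.

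In the acute infancy-onset rats the groups overlapped for every member. miR-451-5p ran from 171.1 to 415.3 CPM (median 330.5) in 8 SE libraries and from 183.8 to 457.0 (median 298.1) in 9 controls, and its log2 difference had a standard error of 0.23 around a value under 0.01. miR-144-5p ran from 39.1 to 90.6 (median 59.5) and from 17.8 to 91.8 (median 64.5), a difference of 0.10 ± 0.26. miR-144-3p ran from 11.2 to 91.6 (median 58.0) and from 7.0 to 132.9 (median 26.6), a difference of 0.34 ± 0.42. For this arm 7 of 8 SE libraries were above the control median, and 1 control was above every SE library. The difference ran from 0.20 to 0.64 when 1 library was left out, and was 0.25 in DESeq2 and 0.86 in limma voom. Controls of miR-144-3p spanned a 19-fold range, on 9 to 89 reads a library. edgeR called 4.96% of all miRNAs in this contrast.

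At 3 months the SD of log2 CPM within groups was larger than in the other stages for each member. By the fold between the highest and lowest library, miR-144-3p was widest in the latent adult-arm controls (53.2-fold), among groups with reads in every library. In adult-onset rats miR-451-5p ran from 126.3 to 543.3 CPM (median 358.4) after SE and from 55.3 to 663.0 (median 317.4) in controls, a log2 difference of 0.07 ± 0.39. miR-144-5p ran from 15 to 75.9 (median 34.4) and from 6.1 to 167.6 (median 29.7), a difference of -0.28 ± 0.45. miR-144-3p ran from 2.1 to 28.9 (median 10.5) and from 2.0 to 33.4 (median 10.9), a difference of -0.10 ± 0.45. For each member the range of the controls enclosed that of the SE libraries, and edgeR called 1.36% of all miRNAs in this contrast.

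In infancy-onset rats at 3 months miR-451-5p ran from 40.8 to 297.8 CPM (median 118.4) after SE and from 103.9 to 311.3 (median 209.4) in controls. 7 of 10 SE libraries were below the control median and 3 below every control, at a log2 difference of -0.38 ± 0.34. miR-144-5p ran from 7.0 to 32 (median 21.6) and from 11.8 to 77.6 (median 25.9), a difference of -0.59 ± 0.34. miR-144-3p ran from 0 to 19.6 (median 7.9) and from 2.4 to 30.3 (median 8.7), a difference of -0.28 ± 0.42. The lowest value belongs to library 3-S24, with 0 reads of miR-144-3p among 499094, which allows up to 6.01 CPM of the library total by counting error alone. This floor is not on the TMM scale of the medians, so it cannot be set against them. On that scale 10 reads of miR-144-5p in this library came to 29.7 CPM. All 3 differences were negative. edgeR called 0 of 442 miRNAs in this contrast (0%), 23 passed at an unadjusted p under 0.05, and DESeq2 and limma voom called 0.

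**Figure D2:**
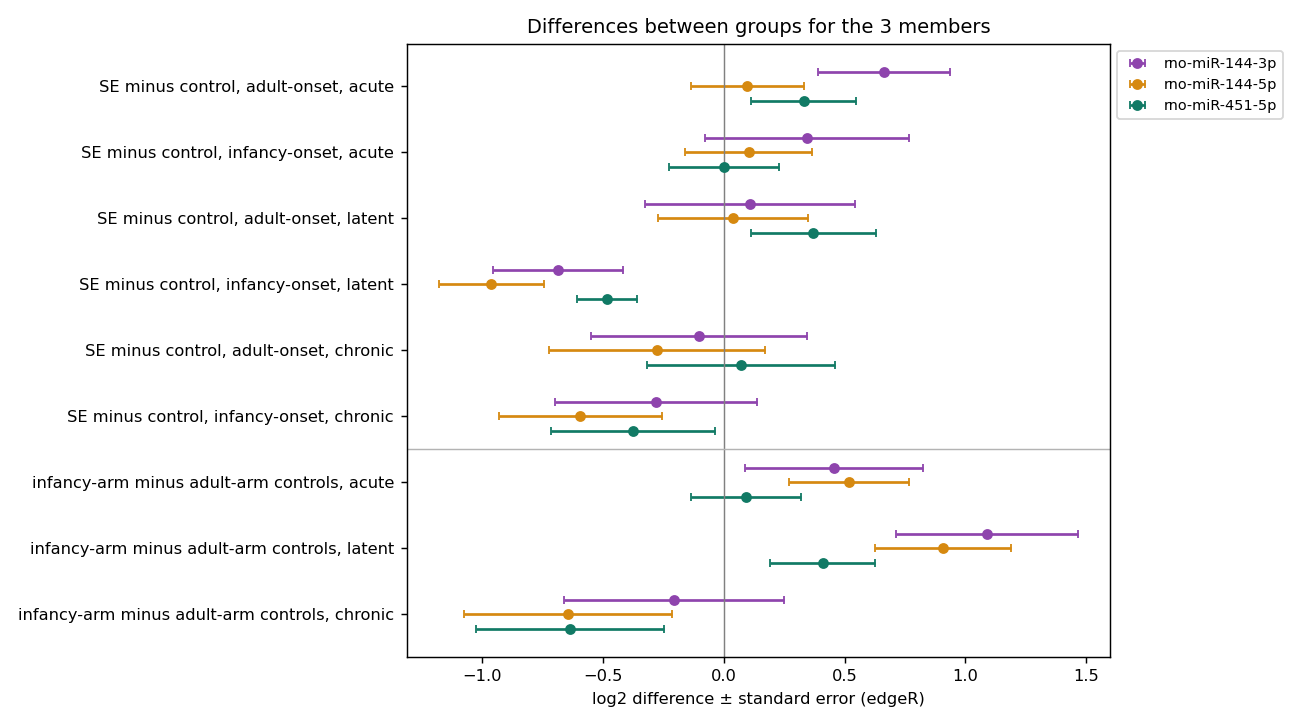
Log2 difference of each member (points) with its standard error (bars) in 9 contrasts, 6 of SE against control above the line and 3 of infancy-arm against adult-arm controls below it. All 3 members lie to the left of 0 in the latent infancy-onset SE contrast (-0.69, -0.96 and -0.48) and to the right in the latent controls (1.09, 0.91 and 0.41).

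The control animals of the 2 onset ages were then set against each other. The 10 latent infancy-arm controls also enter the latent SE contrast that had a part in choosing the members, so that high values in them are part of the choice, and the latent differences are given without a test. In the latent stage, where infancy-arm controls are much younger than adult-arm controls, both arms of miR-144 were higher in the infancy arm. miR-144-3p was 30.1 ± 18.9 CPM (SD, n = 10) in the infancy arm and 14.5 ± 13.1 (n = 10) in the adult arm, a log2 difference of 1.09 ± 0.38 (standard error). miR-144-5p was 57.5 ± 17.1 and 30.02 ± 17.8, a difference of 0.91 ± 0.28. All 10 infancy-arm controls lay above the adult-arm median for both, although 2 of them for miR-144-3p and 1 for miR-144-5p lay above every adult-arm control. miR-451-5p was 295.5 ± 54.3 and 222.6 ± 120, again with 10 of 10 above the adult-arm median, and a log2 difference of 0.41 ± 0.22.

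Most miRNAs differed in this contrast: edgeR called 57.6% of 406, 29.1% as higher and 28.6% as lower. Over the fits that left out 1 library, the log2 difference ran from 0.85 to 1.54 for miR-144-3p, from 0.82 to 1.21 for miR-144-5p and from 0.31 to 0.56 for miR-451-5p. Of the 5 other red cell miRNAs, 3 were called higher and 1 lower, with a median log2 difference of 0.65 against 0.01 over all miRNAs. Of the 4 leukocyte and platelet miRNAs, 0 were called higher and 1, miR-150-5p, lower. The medians of miR-144-5p were 24.5 in adult-arm controls, 32.3 in adult-onset SE, 26 in infancy-onset SE and 61.2 in infancy-arm controls. For the other members the infancy-arm controls were close to 1 of the SE groups, with medians of 292.6 against 280.5 in adult-onset SE for miR-451-5p and of 21.3 against 20.8 in infancy-onset SE for miR-144-3p.

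In the acute controls the log2 differences between infancy and adult arm were 0.46 ± 0.37 for miR-144-3p (adjusted p of 0.278 in edgeR), 0.52 ± 0.25 for miR-144-5p (0.0647) and 0.09 ± 0.23 for miR-451-5p (0.745). None passed, where edgeR called 67.1% of all miRNAs (34.7% as higher and 32.4% as lower). DESeq2 and limma voom also called no member, against 258 and 273 of all 383 miRNAs. At an unadjusted p under 0.05, 1 of the 3 members and 265 of 383 miRNAs passed in edgeR. The miR-144-3p difference was 0.15 without the infancy-arm control 1-S32, the shallowest library, 0.12 without all libraries under 500000 reads and -0.04 in limma voom. miR-144-5p passed in 4 of 18 fits that left out 1 library, without the infancy-arm control 1-S37 (0.61), 1-S39 (0.64) or 1-S40 (0.58) or the adult-arm control 1-S19 (0.59), and with library totals (0.67, which called 1 member). In the same contrast 3 of 4 other red cell miRNAs tested were called higher and 1 lower.

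In the chronic controls, when both arms were adult, all 3 differences had the opposite sign. They were -0.21 ± 0.45 for miR-144-3p (adjusted p of 0.772 in edgeR), -0.65 ± 0.43 for miR-144-5p (0.378) and -0.64 ± 0.39 for miR-451-5p (0.319). edgeR called 6.56% of all miRNAs and none of the members. DESeq2 and limma voom also called no member, against 45 and 153 of all 442 miRNAs. At an unadjusted p under 0.05, 0 of the 3 members and 106 of 442 miRNAs passed in edgeR. The miR-144-5p difference was -0.18 without the adult-arm control 3-S11 and -0.93 without the infancy-arm control 3-S40. miR-451-5p was below the adult-arm median in 9 of 9 infancy-arm controls, but the adult-arm controls spanned a 12-fold range, from 55.3 to 663.0 CPM. In limma voom, which gives libraries unequal weights, its difference was 0.07.

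The balance between the 2 hairpins was examined in the same controls after the levels had been seen, and restates them without a test. In the latent stage there were fewer reads of miR-451-5p for each miR-144 read in the infancy arm, with a log2 ratio of 1.80 ± 0.32 (SD, n = 10) against 2.29 ± 0.31 (n = 10). The difference was -0.49, and -0.55 to -0.43 when 1 library at a time was left out. The difference was -0.26 in the acute and -0.10 in the chronic controls, and the share of the 3p arm in miR-144 differed by -3.34, 3.76 and 2.01 percentage points in the 3 stages.

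Whether the members varied together from animal to animal was measured on the deviation of each library from the mean of its own group, so that no difference between groups enters. In the latent stage (40 libraries), miR-451-5p varied with miR-144-3p at a Pearson's r of 0.80 and a Spearman's rho of 0.80, and with miR-144-5p at 0.67 and 0.69, each with an adjusted permutation p of 7e-05 over 21 relations, with 1e-05 before adjustment, the smallest that 100000 permutations can give. The arms of miR-144 varied with each other at 0.47 and 0.57, with adjusted permutation p of 0.00735 and 0.00105. Without the 2 libraries farthest out on miR-451-5p, the first r values were 0.78 and 0.66.

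In the chronic stage (39 libraries), miR-451-5p varied with miR-144-5p at an r of 0.72 and a rho of 0.67 (adjusted permutation p of 7e-05 and 0.00021) and with miR-144-3p at 0.45 and 0.60 (0.014 and 0.00063). The lower r of the 3p arm includes library 3-S24, which was 1.15 log2 units above its group mean in miR-451-5p yet had no read of miR-144-3p. Without libraries under 500000 reads, of which it is 1, the rho was 0.72. Without the 2 libraries farthest out on miR-451-5p, the r was 0.65 for miR-144-5p and 0.36 for miR-144-3p. The arms of miR-144 varied with each other at 0.41 and 0.46 (0.0175 and 0.0114), with an r of 0.31 without the 2 libraries farthest out on miR-144-5p. In the acute stage (35 libraries) the relations passed as well, at an r of 0.50 and a rho of 0.48 for miR-144-3p (adjusted permutation p of 0.00803 and 0.00979) and 0.56 and 0.53 for miR-144-5p (0.0021 and 0.00412). Both r values were the same without the 2 farthest libraries. For the arms of miR-144 the values were 0.56 and 0.47 (0.00623 and 0.0162), with an r of 0.46 without 2 libraries. Within single groups the rho of miR-451-5p with miR-144-5p ran from 0.17 to 0.78 in the acute, 0.36 to 0.87 in the latent and 0.25 to 0.87 in the chronic stage, and was above 0 in every group. With miR-144-3p it ran from 0.15 to 0.77, 0.16 to 0.89 and 0.32 to 1.0, the last in the chronic adult-arm controls.

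The chronic library farthest below its own group mean over the 3 members, 3-S20, was 2.10, 2.28 and 2.12 log2 units below the mean of the adult-arm controls in miR-144-3p, miR-144-5p and miR-451-5p. Library 3-S11 of the same group was 1.03, 2.42 and 1.24 above it. All 3 members were on the same side of the group mean in 22 of 35 acute, 26 of 40 latent and 22 of 39 chronic libraries.

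**Figure D3:**
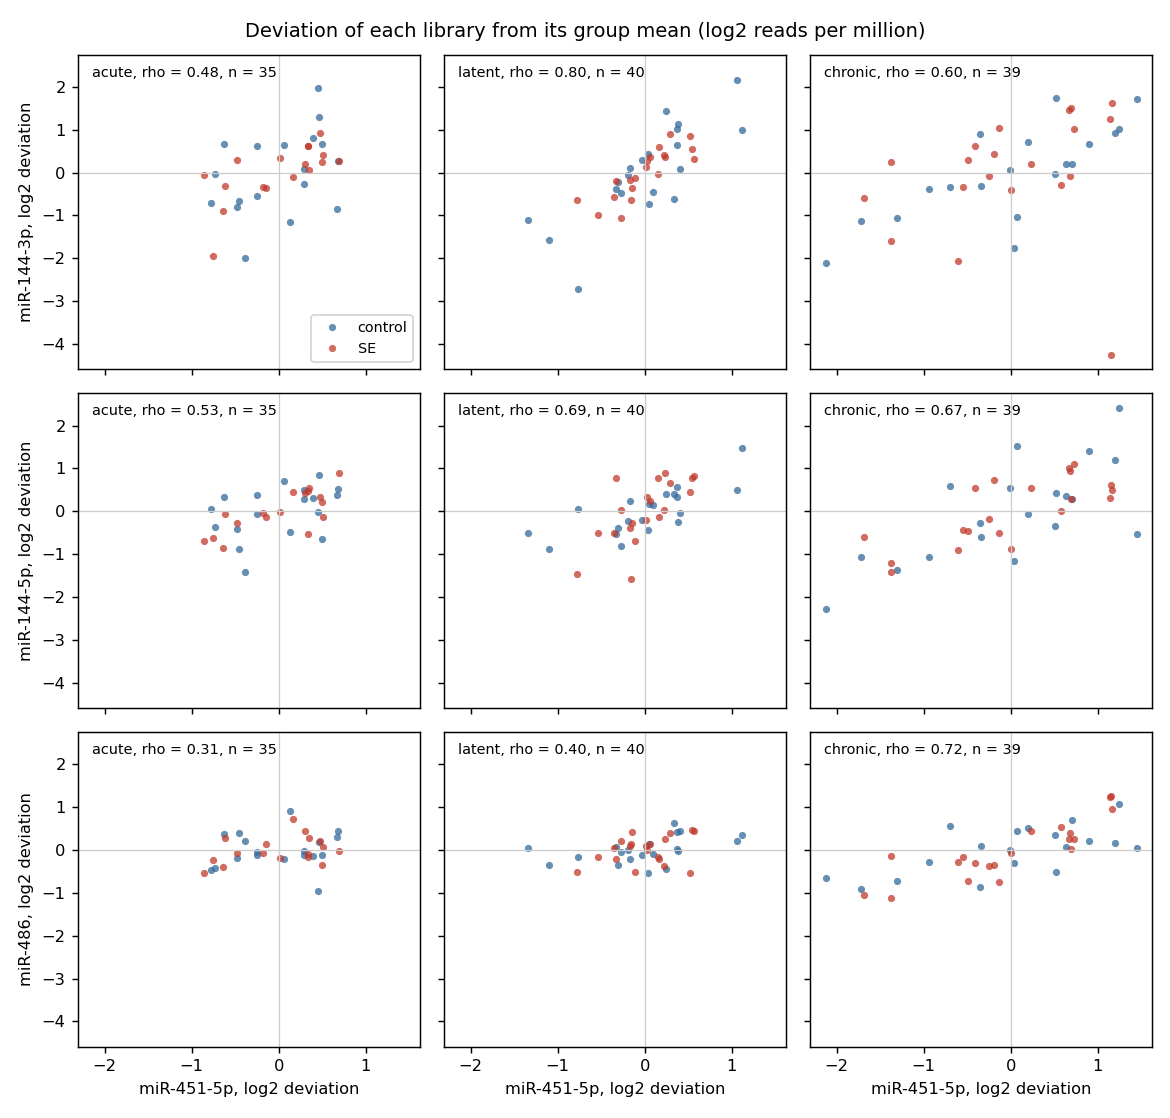
Deviation of each library from its group mean (log2 CPM) for miR-144-3p, miR-144-5p and miR-486 (rows) against miR-451-5p (horizontal axis), by stage (columns), with controls in blue and SE in red. The points rise together for both miR-144 arms, most tightly for miR-144-3p in the latent stage (rho 0.80), and the point far below the others in the chronic stage is library 3-S24.

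Outside the cluster, miR-486 varied with miR-451-5p in the chronic stage at an r of 0.74 and a rho of 0.72 (adjusted permutation p of 0.000105 and 7e-05) and in the latent stage at 0.39 and 0.40 (0.0196 and 0.0232). In the acute stage the values were 0.22 and 0.31, with adjusted permutation p of 0.313 and 0.12. Within single groups the rho with miR-486 ran from -0.27 to 0.57 in the acute, 0.32 to 0.59 in the latent and -0.03 to 0.84 in the chronic stage. The values below 0 were all in infancy groups. The leukocyte and platelet list varied with miR-451-5p in the acute stage at 0.42 and 0.55 (0.0186 and 0.00276) and in the chronic stage at 0.38 and 0.43 (0.0164 and 0.00979). In the latent stage its rho was 0.17 (adjusted permutation p of 0.46), and within groups it ran from -0.28 to 0.66. Taken singly and without a test, the latent rho was 0.32 for miR-142-3p, 0.35 for miR-142-5p and 0.11 for miR-223-3p. It was -0.02 for miR-150-5p, the most abundant of the list. The vessel wall list gave 0.04 and 0.34 in the acute and latent stage, with adjusted permutation p of 0.904 and 0.0545, and no relation in the chronic stage (0.997). Its most abundant miRNA, miR-143-3p, had a latent rho of 0.26, without a test. That rho was 0.50 for miR-126a-3p, 0.42 for miR-126a-5p, 0.06 for miR-145-5p and 0.07 for miR-145-3p. The number of miRNA reads in a library did not pass with miR-451-5p in any stage, with adjusted permutation p of the rho from 0.421 to 0.997. Within single groups this rho ran from -0.67 to 0.43 in the acute, -0.37 to 0.01 in the latent and -0.43 to 0.35 in the chronic stage. The number of reads was not set against the miR-144 arms.

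Of 378 miRNAs that were tested in all 3 stages, the 2 whose within-group pattern was most like that of miR-451-5p were the arms of miR-144, ranked by the lowest of the 3 rho values (0.53 for miR-144-5p and 0.48 for miR-144-3p). They were followed by miR-206-3p (0.46), a skeletal muscle miRNA with a mean of 6.36 to 20.7 CPM, miR-142-3p (0.32), miR-153-5p (0.31), miR-486 (0.31) and miR-3085 (0.28). These values describe likeness over 35, 40 and 39 libraries, which share their depth and scaling between miRNAs. The other red cell miRNAs were not among them, with lowest rho values of -0.04 for miR-16-5p, -0.25 for miR-25-3p and -0.45 for miR-92a-3p, which are read in many tissues. Nor were the other muscle miRNAs tested, with lowest rho values of 0.03 for miR-1-3p and -0.11 for miR-133a-3p.

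The members also spread more between animals of 1 group than most miRNAs of their level. The SD of log2 CPM within groups was 0.86, 0.91 and 1.28 for miR-144-3p in the acute, latent and chronic stage, above 97.7%, 97.8% and 96.6% of all miRNAs. It was 0.56, 0.66 and 1.00 for miR-144-5p (83.8%, 93.6% and 85.5%) and 0.52, 0.51 and 0.95 for miR-451-5p (78.1%, 83.7% and 83.0%). The median of all miRNAs was 0.38, 0.35 and 0.54. Among the 50 miRNAs closest in level to each member, between 1 and 13 had a larger SD, depending on the member and stage. For miR-486 it was 0.38, 0.33 and 0.63, near the median of all miRNAs in the acute and latent stage.

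Few reads lay behind the lowest values of miR-144-3p. It had 2 reads in latent library 2-S16, 4 in chronic library 3-S20 and 0 in 3-S24, whereas miR-451-5p never had fewer than 92. miR-451-5p reached 10695 reads in 1 chronic library. The share of the spread due to counting was not tested.

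**Figure D4:**
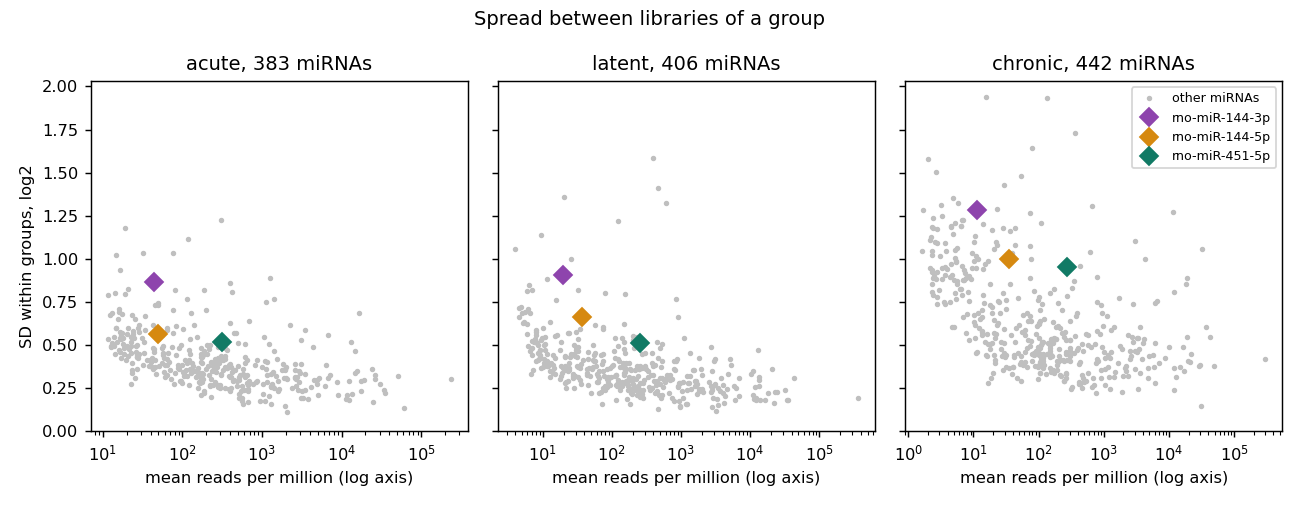
SD of log2 CPM within groups against the mean level (log axis) of every miRNA tested in the acute, latent and chronic stage, with the 3 members as coloured diamonds. The diamonds lie in the upper part of the cloud at their level, at 0.52 to 0.86 in the acute, 0.51 to 0.91 in the latent and 0.95 to 1.28 in the chronic stage.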

How the data were processed

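The authors sequenced small RNA libraries (NEXTflex Small RNA-Seq Kit v3) and assigned trimmed reads to miRBase with at most 1 mismatch, as the paper's methods state for the chronic stage. Per the file headers, the deposited tables give for each stage raw read counts per miRNA and normalised counts, a signal the authors made (the submitters' notes name DESeq2 1.16.1), which was not used. The genome build is not given in the sources used here. Of 120 labelled samples, 114 had counts and 6 are not analysed here. 0 columns fell outside the labels.

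Counts were fitted in edgeR 4.0.16 (R 4.3.3) with TMM factors and the quasi-likelihood test, within each stage and on miRNAs with over 500 reads (383, 406 and 442), SE contrasts on their 2 groups and control contrasts in a fit of 4 groups, with Benjamini-Hochberg adjustment at 0.05. Log2 CPM used a prior count of 2, and read ratios a pseudocount of 1. Correlations used 100000 permutations within groups. The fit was tested on simulated data. Alternatives were DESeq2 1.42.0, limma 3.58.1 voom, RLE factors, library totals, no filter and leaving out each library. The members and the marker lists were chosen with earlier results of these data known, and the latent control contrast, fitted as a test, is printed without its p because it shares libraries with the contrast used in that choice. Besides the members, miRNAs were named when they belonged to a marker list, were among the 5 most like miR-451-5p or were needed to describe a count. The labels do not say more of the replicates than separate titles, so p-values measure the spread between these libraries. Intervals and floors cover counting error only.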

Additional observations from a re-analysis of the deposited data

Results flagged for a closer look

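In 36 tests of 3 members in 12 groups, the highest or lowest library was set against the range of its group, on CPM without logarithms. By chance the rule flags about 1 in 20 groups if levels are normally distributed, which was not tested. It picked out 4 libraries, all of them controls and each the highest of its group. The rule was not run on log2 CPM, where high values stand out less, so nothing is read from the side of the flags. In the latent adult-arm controls miR-144-5p was 76.5 CPM in library 2-S8, with the next library at 38 and the lowest at 14.2. In the same group miR-144-3p was 45.8 in library 2-S12, with the next at 22.4 and the lowest at 0.9. In the chronic adult-arm controls miR-144-5p was 167.6 in library 3-S11, with the next at 83.1 and the lowest at 6.1. In the chronic infancy-arm controls it was 77.6 in library 3-S40, with the next at 40.5 and the lowest at 11.8. miR-451-5p was not picked out in any group.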

How the results depend on the processing

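In the latent infancy-onset SE contrast, which had a part in the choice of the members, 1 member was called, against 2 with RLE size factors, DESeq2 and limma voom, 0 with library totals and in the fit of 4 groups, and 0 to 2 when a library was left out. DESeq2 called 10 and limma voom 5 of all 406 miRNAs in that contrast. In the control contrasts, library totals raised the acute miR-144-5p difference to 0.67 with 1 member called, leaving out a library gave 0.40 to 0.64 with 0 to 1 called, and the acute miR-451-5p difference ran from -0.01 to 0.19. Leaving out a library moved the chronic miR-144-5p difference between -0.93 and -0.18. limma voom gave -0.04 for acute miR-144-3p and 0.07 for chronic miR-451-5p. For latent miR-451-5p library totals gave 0.55 and limma voom 0.70, and leaving out a library 0.31 to 0.56. Leaving out a library moved chronic miR-144-3p between -0.54 and 0.06, the chronic miR-144-3p share between -0.24 and 5.97 percentage points and the chronic log2 ratio of miR-451-5p to miR-144 between -0.28 and 0.04. Among the correlations, miR-451-5p with the vessel wall list reached a rho of 0.40 in the latent stage with CPM from library totals and as the mean of the groups on their own. It was -0.01 in the acute stage as that mean, and in the chronic stage -0.07 with library totals and -0.08 without libraries under 500000 reads, an alternative added after the data were seen. With the library total, rho was 0.01 in the acute and 0.07 in the chronic stage without those libraries. The cause of these shifts was not tested. Every relation among the members kept its direction and its side of the threshold in the 4 alternatives run, and both latent miR-144 differences between control arms kept their direction in theirs. No paired analysis was possible because each library carries a number of its own. Counts were lowest for miR-144-3p, with 0 to 6 reads in 5 libraries. Not all of these were shallow, since 2-S16 had 2 reads of it among 2776204.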
